A study of Mus musculus with 12 samples.

Results

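A set of 10 carbonic anhydrase genes was examined in mouse colon after injury with dextran sulfate sodium (DSS) and supplementation with L-arginine (L-Arg). They are Car1, Car2, Car3, Car4, Car7, Car8, Car9, Car12, Car13 and Car14, chosen by symbol from a given list, and all 10 of 10 were found among the 19938 genes that had a probe set assigned to that gene alone. Each of them had 1 such probe set, so the choice of the brightest probe set over the 12 arrays, the only measured value in the rule, removed nothing. A further 6 family members in the platform table (Car5a, Car5b, Car6, Car10, Car11 and Car15) were not on the list and serve for comparison, which makes 16 genes in all. Because the list was drawn up with results of these arrays in view, a call on a member is a description of these mice and not an independent test of the family.

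The colons came from 12 wild-type C57BL/6 males that entered the study at 7 weeks of age, 3 per group with an array each. The DSS+L-Arg mice drank 4% DSS for 6 days and then 1% L-Arg for 4 days, and the DSS mice drank the same DSS followed by plain water. The Ctrl+L-Arg mice received no DSS and drank 1% L-Arg over the same last 4 days, and the Ctrl mice drank water throughout. All were sacrificed on day 10, and by the general methods of the study a proximal and a distal piece of each colon were combined, so the RNA comes from mixed tissue. Values are log2 signals from Affymetrix Mouse Gene ST arrays, normalized by the authors with RMA, which corrects the background, equalizes the distributions of the arrays and combines the probes of a probe set. A difference of 1 on this scale is a doubling. Signals of different probe sets are not comparable, so each gene is compared with itself across mice.

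Carbonic anhydrases are zinc enzymes that interconvert carbon dioxide and water with bicarbonate and protons. In the colon, the cytosolic forms supply bicarbonate and protons to the exchangers that absorb sodium chloride, and membrane-bound forms work at the luminal face of surface cells or, for Car9 and Car12, on the basolateral face of epithelial cells. Car9 is a classic target of the hypoxia-inducible transcription factors (HIF), Car3 is an abundant protein of fat cells, liver and slow muscle, and Car8, Car10 and Car11 are related proteins that lack the catalytic site.

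The promoters of 3 members are shown because Car4 was the member that separated all mice with DSS from all mice without it, and because Car9 and Car12 varied together across the colons, as described below. Each is the stretch of 250 bases upstream of an annotated start, from RefSeq on build GRCm38.p6, plus strand, Car9 at chr4:43506776-43507025, Car12 at chr9:66713436-66713685 and Car4 at chr11:84957504-84957753. Capitals mark the core of the HIF binding site, ACGTG, or its reverse complement CACGT, which overlaps ACGTG only where the letters CACGTG occur.
Car9: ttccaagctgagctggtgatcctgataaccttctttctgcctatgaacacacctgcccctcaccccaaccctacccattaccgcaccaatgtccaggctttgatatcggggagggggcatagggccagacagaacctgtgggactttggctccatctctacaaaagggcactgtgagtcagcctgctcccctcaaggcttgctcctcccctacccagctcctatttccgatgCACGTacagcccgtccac
Car12: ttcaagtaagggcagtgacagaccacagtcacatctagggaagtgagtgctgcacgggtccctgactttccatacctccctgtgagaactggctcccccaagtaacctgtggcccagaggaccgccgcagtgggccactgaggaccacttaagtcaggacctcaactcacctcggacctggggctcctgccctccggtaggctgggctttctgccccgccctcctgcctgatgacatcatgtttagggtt
Car4: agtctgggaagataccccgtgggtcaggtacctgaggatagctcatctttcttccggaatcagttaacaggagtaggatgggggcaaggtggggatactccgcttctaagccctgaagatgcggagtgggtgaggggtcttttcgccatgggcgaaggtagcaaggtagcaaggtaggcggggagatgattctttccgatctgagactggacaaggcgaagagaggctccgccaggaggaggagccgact
The Car9 promoter held 1 match, 18 bases before the start, and the Car12 and Car4 stretches held none. Among all 32851 promoters of this length in the table, 16.6% held the core on either strand. The table held 7 promoters for 5 of the 10 members (Car4, Car7, Car9, Car12 and Car14), and 2 of the 7, those of Car9 and Car14, had a match. A match is a run of letters and not evidence of binding.

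After DSS, 2 of the 10 genes were called lower and 0 were called higher than in Ctrl colon, by limma with Benjamini-Hochberg adjustment over all genes and a threshold of 0.05 (background of all genes, 2.23% called lower and 1.80% called higher). The 2 genes were Car3 and Car4. The median log2 fold change of the 10 genes was -0.18, and that of all genes was -0.01. An unadjusted p under 0.05 was found for 4 of the 10 genes and for 19.6% of all genes. Groups of 3 did not overlap for 2 of the 10 genes, and 25.0% of all genes did not overlap in this comparison. Signals of bulk tissue cannot tell fewer cells of a type from less RNA per cell.

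**Figure D1:**
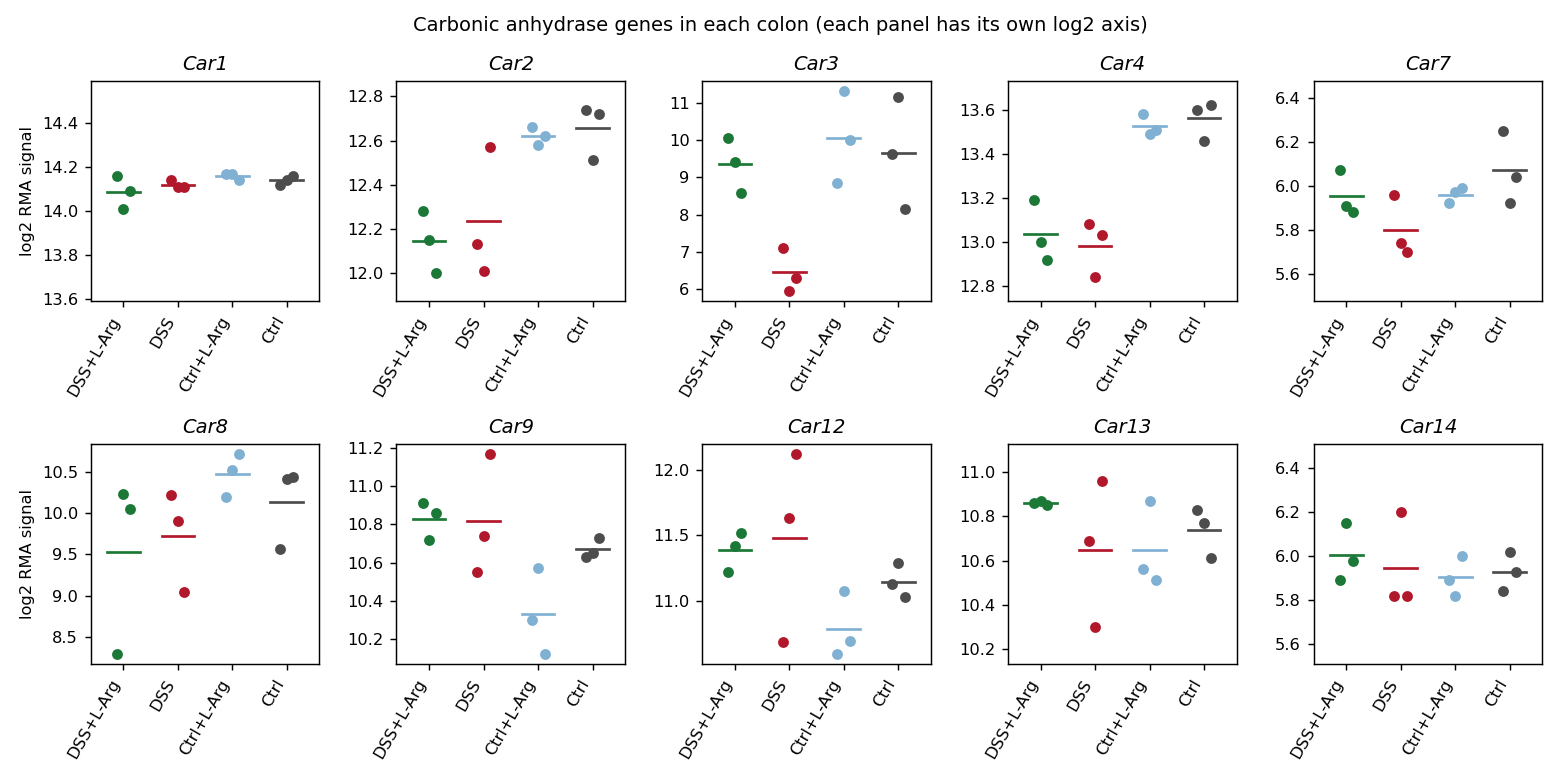
Log2 RMA signal (y axis, a separate scale in each panel) of the 10 carbonic anhydrase genes in each of 12 colons, with the groups DSS+L-Arg, DSS, Ctrl+L-Arg and Ctrl along the x axis. Points are mice and lines are group means (n = 3). Car3 lay at 5.93 to 7.11 in the DSS mice alone, and Car4 at 12.84 to 13.19 in all mice given DSS, against 13.46 to 13.62 in the mice without it.

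Among the cytosolic enzymes, Car3 showed the greatest difference. Its log2 signal was 7.11, 5.93 and 6.28 in DSS mice 1, 2 and 3, against 9.63, 11.16 and 8.15 in Ctrl mice 1, 2 and 3. Every DSS mouse lay below every Ctrl mouse, and the Ctrl mice were themselves spread over 3 units. The mean was 6.44 ± 0.61 in DSS mice and 9.65 ± 1.51 in Ctrl mice (SD, n = 3 each), a log2 fold change of -3.21 (SE 0.75, limma adjusted p = 0.0379), that is, a 9.23-fold lower signal. This call rested on few arrays: it was lost without Ctrl 1 (adjusted p = 0.114), Ctrl 2 (0.106), DSS 2 (0.111), DSS 3 (0.0748), Ctrl+L-Arg 3 (0.0554), DSS+L-Arg 2 (0.0567) or DSS+L-Arg 3 (0.0516), while the fold change stayed between -3.96 and -2.45. It was also lost when only the DSS and Ctrl arrays were fitted (adjusted p = 0.107), with array weights (-2.96, adjusted p = 0.0646) and with a trended and robust prior (adjusted p = 0.0645).

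When L-Arg followed DSS, Car3 was 10.07, 9.43 and 8.59 in DSS+L-Arg mice 1, 2 and 3. All lay above the 3 DSS mice and within the range of the Ctrl mice. The log2 fold change of DSS+L-Arg versus DSS was 2.92 (SE 0.75, 95% confidence interval 1.28 to 4.56), and it did not pass the adjustment over all genes (limma adjusted p = 0.13). In uninjured colon, Car3 lay at 8.84, 11.33 and 10.01 in Ctrl+L-Arg mice, a log2 fold change of 0.42 (SE 0.75, adjusted p = 0.999) versus Ctrl. The direct test of whether the effect of L-Arg differed with and without DSS gave a difference of 2.50 (SE 1.06), with an unadjusted p of 0.0368 and a limma adjusted p of 0.419. In that test 0 of the 10 genes were called in either direction (0.0100% of all genes called higher, 0.0652% called lower), and Car3 was the 1 member with an unadjusted p under 0.05, as had 10.8% of all genes.

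The 3 genes with a pattern over the 12 arrays most like that of Car3 were, by Pearson's r as a description, Cyp2e1, an ethanol-oxidizing cytochrome P450 (r = 0.916), Tgm7, a transglutaminase (r = 0.908), and Tspan3, a tetraspanin (r = 0.897). With each gene centred within its groups, r was 0.912, 0.792 and 0.598 for Cyp2e1, Tgm7 and Tspan3. Tgm7 signals lay at 5.57 to 6.05 in all mice, below the array medians (6.49 to 6.64). The points share the 12 arrays and their normalization. Since Car3 is abundant in fat cells, 17 adipocyte genes were examined beside it. By limma 0 of these were called in DSS versus Ctrl, with a median log2 fold change of -0.32. An unadjusted p under 0.05 was found for 4 of the 17, beside 19.6% of all genes. The log2 of their summed signal was 13.15 to 13.42 in DSS+L-Arg and 13.13 to 13.35 in DSS mice. It was 13.02 to 13.75 in Ctrl+L-Arg and 13.19 to 13.71 in Ctrl mice. Bright genes weigh most in such a sum.

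Adipoq, the fat cell hormone adiponectin, chosen from that list after its values were seen, was 6.54, 6.11 and 6.19 in DSS mice 1, 2 and 3. It was 6.68, 8.70 and 5.93 in Ctrl mice 1, 2 and 3, and the mice with high Adipoq, Ctrl 2 and Ctrl+L-Arg 2 (9.31), were also those with the highest Car3. The order was not shared throughout, since Ctrl 3 had the lowest Adipoq of all 12 mice with a Car3 signal of 8.15, and DSS 3 had an Adipoq signal of 6.19 with a Car3 signal of 6.28. In DSS+L-Arg mice Adipoq was 7.72, 6.91 and 6.97, all above the DSS mice (log2 fold change 0.92, SE 0.74, limma adjusted p = 0.605). Retn and Plin1 of the adipocyte list also lay above all DSS mice there (1.04 and 0.55, adjusted p = 0.54 and 0.551). Lep overlapped the DSS mice (0.10, adjusted p = 0.84). Over the 17 adipocyte genes the median of DSS+L-Arg versus DSS was 0.21, and limma called 0 of them. In that comparison 1 of the 17 had an unadjusted p under 0.05, beside 13.5% of all genes. Ctrl 2 and Ctrl+L-Arg 2 also stood apart in the posterior Hox genes, which mark the position along the colon, with log2 summed signals of 9.68 and 9.97, against 11.61 to 12.12 in the other 4 mice without DSS. These sums were 12.11, 9.69 and 9.53 in DSS+L-Arg mice 1, 2 and 3 and 9.79, 10.55 and 10.91 in DSS mice 1, 2 and 3. The part of fat tissue and of the sampled position in the Car3 difference was not tested.

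**Figure D2:**
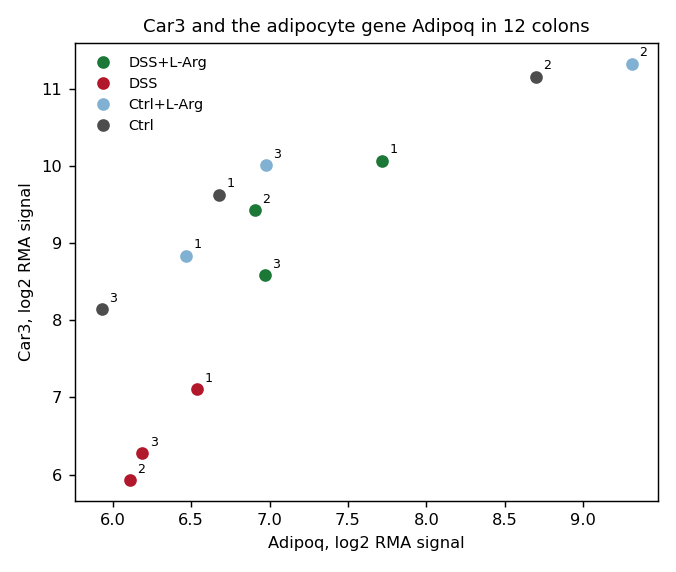
Log2 RMA signal of Car3 (y axis) against that of the adipocyte gene Adipoq (x axis) in 12 colons, each point 1 mouse numbered within its group. The highest Car3 signals (11.16 in Ctrl 2 and 11.33 in Ctrl+L-Arg 2) go with the highest Adipoq signals, and at Adipoq signals of 5.93 to 6.68 Car3 ran between 5.93 (DSS 2) and 9.63 (Ctrl 1).

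Car3 lies in a cluster on chromosome 3, where Car13, Car1, Car3 and Car2 follow each other in RefSeq (GRCm38.p6) with no other protein-coding gene between them. The log2 fold changes of its neighbours in DSS versus Ctrl were -0.02 for Car1, -0.42 for Car2 and -0.09 for Car13, beside -3.21 for Car3, and none of the neighbours was called. The difference between neighbouring genes was not tested.

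Car2, the cytosolic enzyme of high activity that feeds the exchangers of surface cells, was 12.13, 12.01 and 12.57 in DSS mice, against 12.74, 12.51 and 12.72 in Ctrl mice. DSS 3 overlapped the Ctrl mice, and the log2 fold change of -0.42 (SE 0.14) was not called (limma adjusted p = 0.115). Without DSS 3 it was -0.59 and was called (adjusted p = 0.0199), as it was with array weights on all 12 arrays (-0.48, adjusted p = 0.0465). In DSS+L-Arg mice Car2 was 12.28, 12.15 and 12.00, below all Ctrl mice (log2 fold change -0.51, SE 0.14, adjusted p = 0.199) and below the Ctrl+L-Arg mice at 12.66, 12.58 and 12.62 (-0.48, SE 0.14, adjusted p = 0.15).

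Car1, another cytosolic enzyme, which red cells and colon epithelium share, spanned 0.17 over all mice. Its signal ran from 14.01 to 14.16 in DSS+L-Arg, 14.11 to 14.14 in DSS, 14.14 to 14.17 in Ctrl+L-Arg and 14.12 to 14.16 in Ctrl mice. The highest signal of any gene on an array was 14.19 to 14.34, so Car1 sat just under the top of the scale in every mouse, with little room for a higher value. The log2 fold change of DSS versus Ctrl was -0.02 (SE 0.07, 95% confidence interval -0.18 to 0.14).

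Car13, a further cytosolic form found in epithelia, was 10.69, 10.30 and 10.96 in DSS mice, around the Ctrl mice at 10.83, 10.77 and 10.61. The DSS+L-Arg mice lay within 0.02 of each other (10.86, 10.87 and 10.85) and just above the Ctrl mice, with a log2 fold change of 0.12 (SE 0.15, limma adjusted p = 0.774). Car7, a cytosolic enzyme known mainly from neurons, had signals of 5.70 to 5.96 in DSS and 5.92 to 6.25 in Ctrl mice, below the median of all probe sets on the arrays (6.49 to 6.64). Its log2 fold change was -0.26 (SE 0.11, adjusted p = 0.193).

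Of the membrane-bound enzymes, Car4, which is anchored by a glycolipid to the luminal face of surface colonocytes, was called lower in DSS than in Ctrl mice and lay as low in DSS+L-Arg mice. Its signal was 13.08, 12.84 and 13.03 in DSS mice, against 13.60, 13.46 and 13.62 in Ctrl mice. The DSS+L-Arg mice, at 13.19, 13.00 and 12.92, overlapped the DSS mice, and the Ctrl+L-Arg mice, at 13.58, 13.49 and 13.51, lay among the Ctrl mice. The log2 fold change of DSS versus Ctrl was -0.58 (SE 0.10, limma adjusted p = 0.0106), a signal 0.669 times that of Ctrl colon. The call was lost without Ctrl 3 (adjusted p = 0.0588) and when only the DSS and Ctrl arrays were fitted (0.0668), with fold changes of -0.55 and -0.58.

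DSS+L-Arg versus DSS gave 0.06 for Car4 (SE 0.10, 95% confidence interval -0.16 to 0.27), so an increase above 0.27 on the log2 scale lay outside the interval. DSS+L-Arg versus Ctrl gave -0.52 (SE 0.10), which was not called (limma adjusted p = 0.0953), and DSS+L-Arg versus Ctrl+L-Arg gave -0.49 (SE 0.10, adjusted p = 0.0695). Across all groups, the 6 mice given DSS had Car4 signals of 12.84 to 13.19, and the 6 mice without DSS had 13.46 to 13.62. Car4 alone of the 10 genes separated these mice without overlap, as did 4.18% of all genes.

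**Figure D3:**
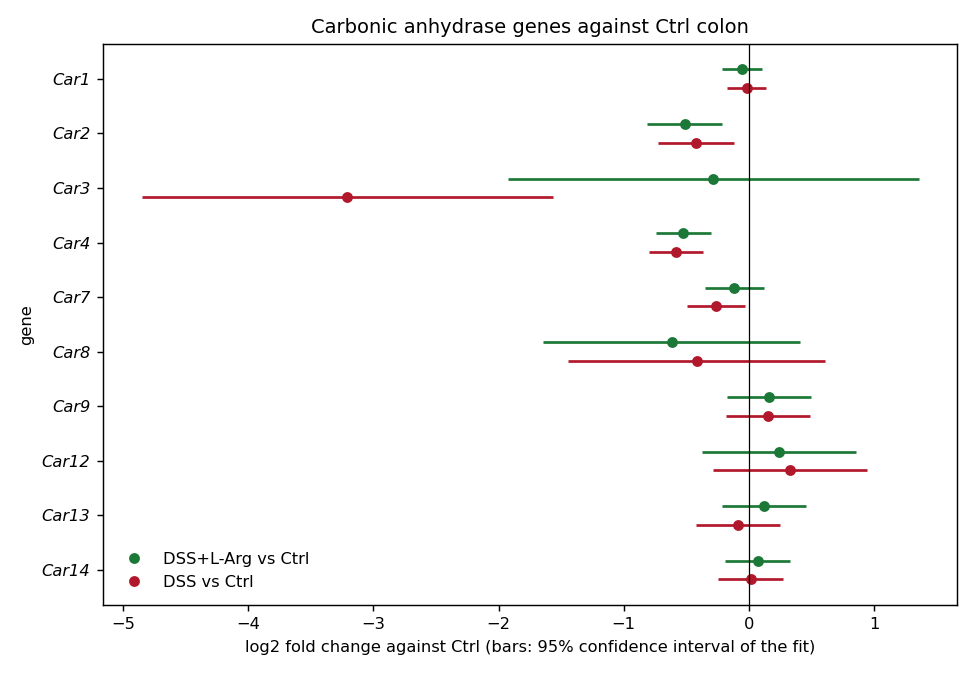
Log2 fold change against Ctrl colon (x axis) for the 10 carbonic anhydrase genes (y axis), with DSS+L-Arg versus Ctrl above DSS versus Ctrl for each gene. Bars are 95% confidence intervals of the fit. Car4 stands at -0.52 and -0.58, Car2 at -0.51 and -0.42, and Car3 at -0.29 and -3.21 in DSS+L-Arg and DSS mice.

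A contrast that averages the effect of DSS over mice with and without L-Arg was added after these values were seen. In it 3 of the 10 genes were called lower and 0 higher (3.96% of all genes called lower, 3.04% higher). They were Car4 (log2 fold change -0.53, SE 0.07, limma adjusted p = 0.00321), Car2 (-0.45, SE 0.10, adjusted p = 0.0216) and Car3 (-1.95, SE 0.53, adjusted p = 0.0491). For Car3 this average joins a low DSS group and a DSS+L-Arg group that overlapped both groups without DSS. An unadjusted p under 0.05 was found for 5 of the 10 genes and for 23.6% of all genes. In the same contrast 1 of 15 surface colonocyte genes, Selenbp1 (-0.43), was called lower, with a list median of 0.05. Neutrophil genes were called higher in 7 of 13 and macrophage genes in 8 of 15. Lower calls were made for 3 of 12 smooth muscle genes (median -1.03, 11 at an unadjusted p under 0.05). They were Cnn1 (-1.35) and Actg2 (-1.34), of the contractile apparatus, and the filament protein Des (-1.29). Of 12 enteric neuron and glia genes 3 were also called lower, Snap25 (-0.98), Uchl1 (-0.67) and Nos1 (-0.62). The part of these cell types in the differences of Car2, Car3 and Car4 was not tested.

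The genes most like Car4 over the 12 arrays, again as a description, were Cyp2r1, a vitamin D 25-hydroxylase (r = 0.964), Fam171a1, a membrane protein (r = 0.953), and Maob, a monoamine oxidase (r = 0.951). Within groups r was 0.865, 0.827 and 0.574 for Cyp2r1, Fam171a1 and Maob. Cyp2r1 signals lay at 4.92 to 6.26 in all mice, below the array medians. In DSS versus Ctrl their log2 fold changes were -1.04 (Cyp2r1), -0.69 (Fam171a1) and -1.30 (Maob). Car2 and Car4 had an r of 0.90 over the 12 arrays, the highest among pairs of members, and of 0.67 within groups.

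Surface colonocytes, the cells that carry Car4 and Car2, were followed by their markers. Of 15 surface colonocyte genes, 1 was called lower in DSS versus Ctrl, the selenium-binding protein Selenbp1 (-0.57, SE 0.11, limma adjusted p = 0.0162), and the list's median was -0.06. The log2 of their summed signal was 16.74 to 16.77 in DSS+L-Arg, 16.74 to 16.80 in DSS, 16.62 to 16.74 in Ctrl+L-Arg and 16.77 to 16.86 in Ctrl mice. Of 14 genes of the whole epithelium, 0 were called, with a median of -0.05. An unadjusted p under 0.05 was found for 5 of the 14, beside 19.6% of all genes. The sums of the 14 genes were 16.20 to 16.27 in DSS and 16.23 to 16.36 in Ctrl mice. Their sum was 16.33 in every DSS+L-Arg mouse and 16.12 to 16.24 in Ctrl+L-Arg mice. In DSS+L-Arg versus Ctrl+L-Arg limma called 0 genes of either list, with medians of 0.15 (surface colonocyte) and 0.09 (whole epithelium). There 7 of the 15 and 3 of the 14 had an unadjusted p under 0.05, beside 15.6% of all genes. The posterior Hox genes had sums of 9.53 to 12.11 in DSS+L-Arg, 9.79 to 10.91 in DSS, 9.97 to 12.12 in Ctrl+L-Arg and 9.68 to 12.09 in Ctrl mice, and 0 of 9 were called in DSS versus Ctrl (1 at an unadjusted p under 0.05, median -0.58). Smooth muscle genes had sums of 12.86 to 13.71 in DSS+L-Arg, 12.62 to 13.16 in DSS, 13.36 to 15.09 in Ctrl+L-Arg and 13.60 to 14.70 in Ctrl mice. The part of the sampled position or of muscle in the Car4 and Car2 differences was not tested.

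Car9 and Car12, the transmembrane enzymes with an extracellular active site, were not called in any comparison over all 12 arrays. Car9 was 10.55, 10.74 and 11.17 in DSS mice, against 10.63, 10.65 and 10.73 in Ctrl mice, a log2 fold change of 0.15 (SE 0.15, limma adjusted p = 0.659). In DSS+L-Arg mice it was 10.91, 10.72 and 10.86, all above the Ctrl+L-Arg mice at 10.30, 10.57 and 10.12 (log2 fold change 0.50, SE 0.15, adjusted p = 0.171). The 3 Ctrl+L-Arg mice also lay below the 3 Ctrl mice, by -0.34 (SE 0.15, unadjusted p = 0.0477, adjusted p = 0.999).

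Car12 was 10.69, 11.63 and 12.12 in DSS mice 1, 2 and 3, spread on both sides of the Ctrl mice at 11.13, 11.29 and 11.03. The log2 fold change of 0.33 (SE 0.28, limma adjusted p = 0.58) depended on single DSS mice: it was 0.73 and called higher without DSS 1 (adjusted p = 0.0374), and 0.01 without DSS 3. DSS 1 also stood apart in Aqp8, a water channel of surface colonocytes that was picked after its values were seen, with a signal of 8.46 against 12.73 and 13.13 in DSS 2 and DSS 3. The surface colonocyte list did not set DSS 1 apart, with log2 summed signals of 16.74, 16.76 and 16.80 in DSS 1, 2 and 3. Krt20, of the same list, was 12.95, 12.68 and 12.91 in these mice. In DSS+L-Arg mice Car12 was 11.22, 11.42 and 11.52, above the Ctrl+L-Arg mice at 10.60, 11.08 and 10.70 (0.59, SE 0.28, adjusted p = 0.336).

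Car9 and Car12 varied together across the colons. Over the 12 arrays r was 0.86 for Car9 with Car12, and 0.77 after each gene was centred within its groups, given as a description of arrays that share their normalization. DSS 3 had the highest signal of both, and the 3 Ctrl+L-Arg mice held 3 of the 4 lowest Car9 signals.

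**Figure D4:**
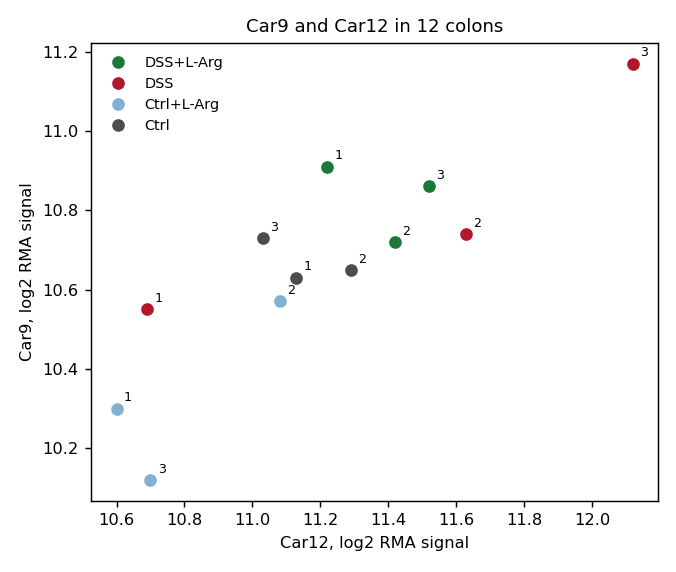
Log2 RMA signal of Car9 (y axis) against Car12 (x axis) in 12 colons, each point 1 mouse numbered within its group. Ctrl+L-Arg 1 and 3 lie lowest in Car9 (10.30 and 10.12), DSS 3 lies highest in both (11.17 and 12.12), and the DSS mice span almost the whole x axis.

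As further HIF targets, 21 genes were examined, and limma called 0 of 21 in DSS versus Ctrl (median log2 fold change 0.11). An unadjusted p under 0.05 was found for 8 of the 21, beside 19.6% of all genes. In DSS+L-Arg versus Ctrl+L-Arg 0 were called, with a median of 0.30 beside 0.04 for all genes. There 7 of the 21 HIF targets had an unadjusted p under 0.05, beside 15.6% of all genes. The log2 of their summed signal was 15.59 to 15.61 in DSS+L-Arg, 15.45 to 15.84 in DSS, 15.15 to 15.39 in Ctrl+L-Arg and 15.41 to 15.48 in Ctrl mice. Nearest to a call was Egln3, a HIF prolyl hydroxylase, with signals of 11.42, 11.17 and 11.73 in DSS mice and 10.76, 10.80 and 10.95 in Ctrl mice (log2 fold change 0.60, SE 0.16, limma adjusted p = 0.0544). In the averaged DSS contrast Egln3 and Ndrg1, a stress-induced gene, were called higher, 2 of the 21 (0.62 and 0.53 on the log2 scale). Car9 at 0.33 (SE 0.11, limma adjusted p = 0.0932) and Car12 at 0.46 (SE 0.20, adjusted p = 0.185) were not called. The median of the 21 HIF targets in that contrast was 0.16, beside 0.02 for all genes. An unadjusted p under 0.05 was found for 11 of the 21, beside 23.6% of all genes.

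Car14, the other transmembrane enzyme, known from brain, kidney and retina, stayed between 5.82 and 6.20 in all 12 mice, below the array medians. DSS versus Ctrl gave 0.01 (SE 0.12, 95% confidence interval -0.25 to 0.27).

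Car8, a protein without enzyme activity that binds the inositol trisphosphate receptor and is best known from Purkinje cells, varied widely between mice of one group. It was 10.22, 9.90 and 9.04 in DSS mice, against 9.57, 10.41 and 10.44 in Ctrl mice (log2 fold change -0.42, SE 0.47, limma adjusted p = 0.7). In DSS+L-Arg mice it was 8.29, 10.23 and 10.05, and in Ctrl+L-Arg mice 10.19, 10.52 and 10.72 (log2 fold change -0.95, SE 0.47, adjusted p = 0.354). Mouse 1 of the DSS+L-Arg group was the lowest of all 12.

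Of the 6 relatives outside the list, Car11, which like Car8 lacks activity, was the only one called in DSS versus Ctrl. Its signal was 7.59, 7.56 and 7.22 in DSS mice, against 8.03, 8.25 and 8.39 in Ctrl mice (log2 fold change -0.77, SE 0.14, limma adjusted p = 0.0147). It lay at 7.46, 7.88 and 7.76 in DSS+L-Arg and at 7.93, 8.12 and 8.12 in Ctrl+L-Arg mice, so that, as for Car4, the 6 mice given DSS lay below the 6 mice without it. The other 5 had log2 fold changes between -0.22 and 0.27, those of the mitochondrial Car5a and Car5b being -0.22 and 0.18, of the secreted Car6 0.27, of the inactive Car10 -0.06 and of the membrane-anchored Car15 -0.22, with signals between 4.55 and 7.25 in every mouse.

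No member was called in the pairwise comparisons that involve an L-Arg group. The averaged DSS contrast described above also includes these groups, and it called Car2, Car3 and Car4. In DSS+L-Arg versus DSS 0 of the 10 were called (0.115% of all genes called higher, 0.522% lower), 1 had an unadjusted p under 0.05 (13.5% of all genes), and Car3 was the only member without overlap, against 16.6% of all genes. Fold changes ran between -0.20 and 2.92, with a median of 0.03 for the members and 0.06 for all genes. In Ctrl+L-Arg versus Ctrl 0 members and 0% of all genes were called in either direction (limma; 1 of the 10 members and 686 of all genes, 3.44%, had an unadjusted p under 0.05), and Car9 was the only member without overlap, against 10.4% of all genes.

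DSS+L-Arg versus Ctrl gave 0 calls among the 10 members (0.0301% of all genes called higher, 0.0351% lower), with 2 at an unadjusted p under 0.05 (12.6% of all genes). Car2, Car4 and Car13 did not overlap, 3 of 10 beside 23.2% of all genes. DSS+L-Arg versus Ctrl+L-Arg also gave 0 calls (0.201% higher, 0.105% lower), with 3 at an unadjusted p under 0.05 (15.6% of all genes). Car2, Car4, Car9 and Car12 did not overlap, 4 of 10 beside 21.1% of all genes. These comparisons share groups of mice, so their values are not independent of each other.

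Carbonic anhydrases work with transporters for their products. Of 24 bicarbonate, proton and lactate transporters limma called 0 in DSS versus Ctrl, with a median log2 fold change of 0.01. An unadjusted p under 0.05 was found for 5 of the 24, beside 19.6% of all genes. The chloride-bicarbonate exchanger Slc26a3 was 11.19, 12.44 and 12.76 in DSS mice and 12.62, 11.42 and 12.21 in Ctrl mice (log2 fold change 0.05, SE 0.40). The sodium-proton exchanger Slc9a3 gave 0.09 (SE 0.34). Slc16a3, a lactate and proton exporter, lay higher in every DSS mouse (8.15, 8.19 and 9.94) than in the Ctrl mice (7.71, 7.33 and 7.59), a log2 fold change of 1.21 (SE 0.37) that was not called (limma adjusted p = 0.0883). In the averaged DSS contrast 2 of the 24 were called higher, Slc16a3 (1.53, SE 0.26, adjusted p = 0.00861) and Slc4a11, of the bicarbonate transporter family (0.75, SE 0.18, adjusted p = 0.0317). The first 3 transporters were named after their values were seen.

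Markers of infiltrating myeloid cells were higher in DSS than in Ctrl mice. Neutrophil genes were called higher in 8 of 13 and monocyte and macrophage genes in 10 of 15, with median log2 fold changes of 2.21 and 1.34 over the lists. The called neutrophil genes of largest change were Ngp (4.82), S100a8 (3.91), Retnlg (3.83) and S100a9 (3.57), and the macrophage ones Fcer1g (2.46), Mpeg1 (2.13), Tyrobp (2.10) and Itgam (2.03). The neutrophil sum was 10.78 to 10.98 in DSS+L-Arg, 11.64 to 13.81 in DSS, 10.21 to 10.60 in Ctrl+L-Arg and 9.92 to 10.66 in Ctrl mice, so it was high in the DSS group in which Car3 was low, and the part of infiltrating cells in the Car3 difference was not tested. Among 9 goblet cell genes, Retnlb, a resistin-like antimicrobial protein, was called higher (3.46) and Clca1 lower (-1.42). In DSS versus Ctrl limma called 0 of 9 crypt base genes, 0 of 12 smooth muscle genes (median -0.89) and 0 of 12 skeletal muscle genes. It also called 0 of 12 enteric neuron and glia genes and 0 of 4 red cell genes. In this order 1, 5, 0, 3 and 1 had an unadjusted p under 0.05, beside 19.6% of all genes.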

How the data were processed

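Colon RNA of 12 mice was hybridized to Affymetrix Mouse Gene ST arrays, 1 array per mouse. The deposited values are log2 signals per probe set, which the authors made by RMA; their processing notes name Affymetrix Expression Console 1.1 and genome build mm9. Of 35556 probe sets, 21789 had exactly 1 gene in the platform table and were kept, the brightest per gene, which gave 19938 genes. Those with several genes (1621) or unlisted (12146) were left out. Arrays have no read depth, and 3 mice per group limit the precision. At least 95.1% of genes differed by over 0.01 between arrays of a group, so no array repeats another of its own group. Arrays of different groups were not compared in this way.

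Groups came from the labels. The model was fitted in R 4.3.3 by limma 3.58.1 with a mean for each group (8 residual and 3.37 prior degrees of freedom), and p was adjusted over all genes by Benjamini and Hochberg, with a threshold of 0.05. The study's SAM was not run. Only between Ctrl+L-Arg and Ctrl did the deviations of all same-numbered mice correlate over 0.1 (0.205, 0.477 and 0.261), a pairing taken from the data and not from the labels. All 16 family genes, the called list genes of largest change in DSS versus Ctrl and the 3 genes most like each called member are named, other named genes (those called in the averaged DSS contrast included) being picked after their values were seen. The members and lists were chosen with earlier results of these data known. The script was tested on simulated data. Cross-hybridization between family members was not tested. Names and promoters came from RefSeq (GRCm38.p6), with 19856 genes matched. Tables and figures used Python 3.11.15, pandas 2.3.3 and matplotlib 3.10.9.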

Additional observations from a re-analysis of the deposited data

How the results depend on the processing

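Of the comparisons, DSS versus Ctrl depended most on the fit. Its count of genes called lower, 2 (Car3 and Car4), was 0 with only the compared groups, 1 (Car4) with a trended and robust prior, 1 (Car3) at the study's thresholds (unadjusted p under 0.01, fold change over 2), and 1 to 2 with an array left out; its count called higher was 0 to 1 with an array left out (Car12, without DSS 1). At the study's thresholds 1 gene (Car3) was higher in DSS+L-Arg versus DSS. Array weights called 2 genes lower (Car2 and Car4) in DSS versus Ctrl, losing Car3, in DSS+L-Arg versus Ctrl and in DSS+L-Arg versus Ctrl+L-Arg, where the trended prior called 1 (Car4). The labels number the mice 1 to 3 without pairing them. Deviations of same-numbered mice correlated over 0.1 in 7 of 18 pairs (-0.355 to 0.477), and a replicate block gave 2 genes called lower in DSS versus Ctrl and changed no other call. In a fit of Ctrl+L-Arg and Ctrl alone, the 1 comparison whose 3 pairs all exceeded 0.1, the block (added after seeing the data) called 0 members.

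Some small fold changes reversed in sign, and the cause was not tested. In DSS versus Ctrl, Car1 was 0.011 after median centring, Car12 was 0 and Car14 was -0.029 with array weights, and Car13 was 0.063 in the averaged DSS contrast, chosen after seeing the data. With array weights Car4 was -0.018 in DSS+L-Arg versus DSS, and with a further quantile normalization Car2 was 0.011 in Ctrl+L-Arg versus Ctrl. With each array left out in turn, DSS versus Ctrl ran between -0.021 and 0.286 for Car9, -0.242 and 0.087 for Car13, and -0.112 and 0.076 for Car14. DSS+L-Arg versus DSS ran between -0.206 and 0.072 for Car2 and -0.021 and 0.116 for Car4, and DSS+L-Arg versus Ctrl between -1.04 and 0.47 for Car3. Ctrl+L-Arg versus Ctrl ran between -0.107 and 0.007 for Car2 and -0.333 and 1.18 for Car3, and the difference of L-Arg effects between -0.171 and 0.106 for Car2. Of 551 recomputed log2 fold changes, 509 kept direction and side of the threshold. They cover 27 selected gene and comparison pairs and not all pairs. Included were every member in DSS versus Ctrl, and Car2, Car3 and Car4 in each planned comparison. Other pairs were included only with a limma unadjusted p under 0.05. Signals near the top of the scale (Car1) or below the array medians (Car7, Car14) limit what could be seen.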
